A study of Mus musculus with 13 samples.

Results

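The genes described here are the 5 members of the Ikaros family of zinc finger transcription factors, Ikzf1 (Ikaros), Ikzf2 (Helios), Ikzf3 (Aiolos), Ikzf4 (Eos) and Ikzf5 (Pegasus), together with Foxp3. They were chosen by name and make up 6 of the 35906 genes in the expression tables. Expression was measured by RNA sequencing in mature thymocytes of Lm54 mice, which carry the transgenic T cell receptor (TCR) of 1 CD4 T cell clone on a Rag1-/- background, so that all groups lack other rearranged receptors. The study asks how cells are marked by selection without cathepsin L (CTSL). This lysosomal protease is implicated in generating self-peptides that cortical thymic epithelial cells (TECs) show. In CtslΔTEC mice, Foxn1-cre deletes Ctsl in TECs, whereas the labels describe controls as Ctsl fl/fl (WT) on the same Lm54 Rag1-/- background. The cells were M2 CD4 single-positive (CD4SP) thymocytes, sorted as CD69-MHCI+. Unstimulated cells came from 5 CtslΔTEC and 4 control mice. Stimulated cells came from 2 other CtslΔTEC and 2 other control mice and had spent 4 h with plate-bound LLO:I-Ab, the complex recognized by the Lm54 receptor, at 1 µg/ml and soluble anti-CD28 at 250 ng/ml. Each library came from an individual mouse. Mice were on a C57BL/6J background, of both sexes and usually 8 to 12 weeks old.

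Ikaros family proteins bind DNA through zinc fingers near their start and pair with one another through fingers near their end, and they recruit chromatin-remodelling complexes that repress or activate genes. Ikaros is made throughout lymphocyte development, Aiolos rises as lymphocytes mature, and Helios and Eos are best known from regulatory T cells, where Eos acts with FOXP3. FOXP3 is the factor that defines regulatory T cells, which arise in the thymus from cells that recognize self-peptides strongly. Ikaros forms without the DNA-binding fingers still pair with other members and act in a dominant-negative way.

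Unstimulated libraries held between 25692380 and 39127833 estimated counts, and stimulated libraries between 8085463 (control mouse 5) and 27184520 (control mouse 6). The 10 markers of CD4SP T cells summed to between 12150 and 34570 TPM. Thymic epithelial Foxn1 was at no more than 0.0338 TPM (transcript level scaled to the library total and corrected for transcript length), so Ctsl in these cells does not check the deletion in TECs. The summed level of markers of double-positive (DP) thymocytes differed with genotype. It was 395 to 481 TPM in unstimulated CtslΔTEC and 189 to 228 TPM in control libraries, and 70.5 to 73.6 against 37.6 to 43.1 TPM after stimulation. At an adjusted p of 0.1 in edgeR, 7 of 9 tested markers were higher and 0 lower in unstimulated CtslΔTEC cells, beside 6.42% and 8.36% of all genes. After stimulation 3 of 10 were higher and 1, Cd1d1, was lower, beside 2.78% and 10.6%. Erythroid markers summed to 160 to 771 TPM in unstimulated CtslΔTEC and 189 to 318 TPM in control libraries, and to 9.67 to 63.1 TPM in stimulated ones. Summed myeloid markers reached 23.2 TPM (stimulated control), B cell markers 2.58 TPM and natural killer cell markers 1.17 TPM. The 7 thymic epithelial markers summed to 2.37 to 3.92 TPM in unstimulated CtslΔTEC and 1.68 to 2.29 TPM in control libraries. After stimulation they summed to 10.2 to 11.8 and 7.94 to 10.3 TPM, most of it from Epcam. The part of these cells in the results was not tested. Y-linked transcripts were high in all 5 unstimulated CtslΔTEC mice but in control mouse 3 alone among the 4 unstimulated controls. Among stimulated mice they were high in 1 mouse of each genotype. The 9 unstimulated libraries carry 2 file dates and the 4 stimulated ones another date of their own, so that date and stimulation cannot be told apart. In bulk RNA, fewer cells of a type and less RNA per cell cannot be told apart either.

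The family resemblance lies in the DNA-binding fingers. In Ikzf1, Ikzf2, Ikzf3 and Ikzf4 an exon of 168 coding bases encodes 2 fingers, and these 4 exons are shown because the fingers define the family. The sequences are those of GENCODE M21 transcripts on GRCm38 (chr11:11754007-11754174 on the plus strand for Ikzf1, and on the minus strand chr1:69570493-69570660 for Ikzf2, chr11:98488852-98489019 for Ikzf3 and chr10:128640141-128640308 for Ikzf4), written 5′ to 3′ with the codons of the zinc-binding cysteines and histidines in capitals:
Ikzf1: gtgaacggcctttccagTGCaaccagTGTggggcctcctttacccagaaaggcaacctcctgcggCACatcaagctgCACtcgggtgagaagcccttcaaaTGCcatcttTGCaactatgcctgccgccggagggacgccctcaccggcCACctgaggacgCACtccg
Ikzf2: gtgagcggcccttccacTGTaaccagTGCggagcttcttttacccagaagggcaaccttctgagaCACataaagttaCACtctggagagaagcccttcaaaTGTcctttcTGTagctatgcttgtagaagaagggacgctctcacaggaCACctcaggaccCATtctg
Ikzf3: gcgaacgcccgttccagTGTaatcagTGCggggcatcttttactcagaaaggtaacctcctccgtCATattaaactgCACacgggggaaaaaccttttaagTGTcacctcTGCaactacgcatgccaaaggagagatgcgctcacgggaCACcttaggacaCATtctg
Ikzf4: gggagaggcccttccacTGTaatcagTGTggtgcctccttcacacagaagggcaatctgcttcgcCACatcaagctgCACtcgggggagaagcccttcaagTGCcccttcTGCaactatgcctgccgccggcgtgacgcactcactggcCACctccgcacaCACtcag

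Between pairs of these exons, 73.2 to 82.1% of the 168 bases were identical, and 49 to 54 of the 55 whole codons encoded the same residue. The highest codon identity was that of Ikzf2 and Ikzf4. Across whole transcripts, runs of 31 identical bases were shared by only 1 of the 15 pairs of members, Ikzf2 and Ikzf4, with 3 such runs. Ikzf1 further has an exon of 261 coding bases that holds its first finger and is used by some of its transcripts and not by others (chr11:11748311-11748571, plus strand):
Ikzf1 first finger exon: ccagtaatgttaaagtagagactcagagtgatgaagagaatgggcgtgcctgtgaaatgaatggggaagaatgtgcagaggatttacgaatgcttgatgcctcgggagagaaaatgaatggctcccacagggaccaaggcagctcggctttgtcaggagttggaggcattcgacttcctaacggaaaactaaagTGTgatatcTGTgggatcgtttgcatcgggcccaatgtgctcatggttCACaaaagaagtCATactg

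Ikzf1 and Ikzf3 were the abundant members of the family. Summed over their transcripts, Ikzf1 (ENSMUSG00000018654; GRCm38 chromosome 11, 11685003 to 11772926) averaged 228 TPM and Ikzf3 (ENSMUSG00000018168; chromosome 11, 98464902 to 98546031) averaged 122.5 TPM over the 13 libraries. In unstimulated cells of both genotypes the order was Ikzf1, Ikzf3, Ikzf5, and no mouse of one gene overlapped with a mouse of the next. Ikzf4, Ikzf2 and Foxp3 followed at a few TPM or less. In CtslΔTEC cells the ranges of Ikzf4 and Foxp3, and of Foxp3 and Ikzf2, overlapped, so their order was not set. In controls the ranges of these 3 genes did not overlap, but the gap between Ikzf2 (lowest mouse 0.884 TPM) and Foxp3 (highest mouse 0.834 TPM) was small.

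**Figure D1:**
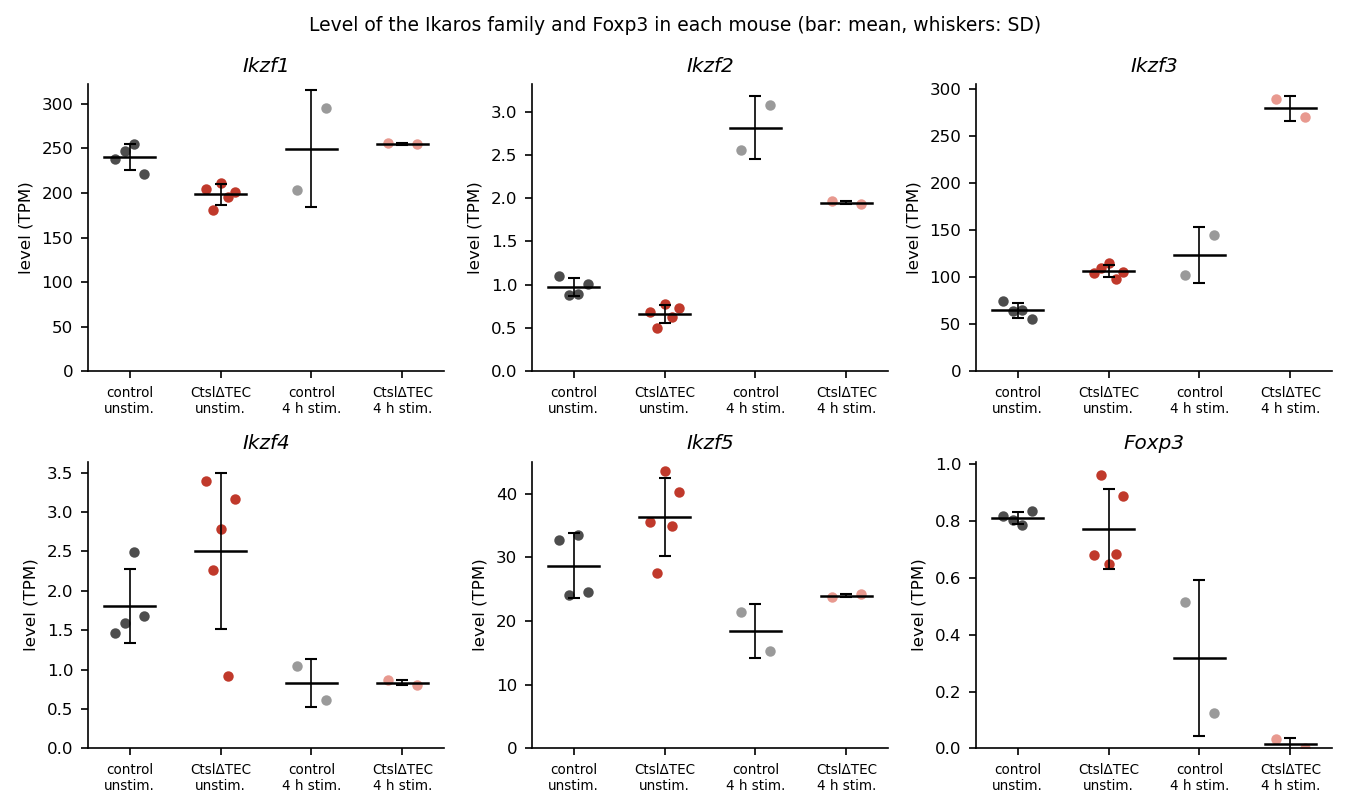
Level of each of the 6 genes in TPM (vertical axes, linear from 0, one scale per gene) in the 4 groups, with 1 point per mouse, the mean as a bar and the SD as whiskers. Ikzf3 was higher in CtslΔTEC cells in both states (97.4 to 115 against 55.2 to 74.2 TPM unstimulated), Ikzf2 was lower, and Foxp3 stayed under 1 TPM in every mouse.

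In unstimulated cells, selection without CTSL was accompanied by more Ikzf3 and by less Ikzf1 and Ikzf2. These 3 of the 6 genes passed an adjusted p of 0.1 in edgeR's quasi-likelihood test, beside 14.8% of the 13152 genes tested, and for the same 3 the genotypes did not overlap, beside 13.9% of all genes. Of all genes, 6.42% were called higher, as was Ikzf3, and 8.36% lower, as were Ikzf1 and Ikzf2. Among called genes, 43.4% were higher, and 56.8% when libraries were scaled by their totals alone, under which these 3 genes kept their direction and call. The median log2 fold change of all genes was 0.01.

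Aiolos, encoded by Ikzf3, takes part in late lymphocyte maturation and in silencing Il2. Its level in CtslΔTEC mice 1 to 5 was 104.2, 109, 115, 97.4 and 105 TPM. In control mice 1 to 4 it was 74.2, 63.5, 64.8 and 55.2 TPM. Every CtslΔTEC mouse was therefore above every control mouse, and the means were 181 against 120 CPM (counts scaled to the library total after TMM normalization). The log2 fold change was 0.60 ± 0.063 (SE, adjusted p = 0.0001048, edgeR; exact permutation test p = 0.00794, the smallest that 5 mice against 4 allow, n = 5 and 4). Within the second date alone, with 3 mice of each genotype, the difference was 0.53 (adjusted p = 0.000869, edgeR), and the first date held 1 control mouse. With the level of Y-linked transcripts as a covariate it was 0.64 (adjusted p = 0.0191, edgeR). The call held in each of the 22 alternative analyses.

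Ikzf1 encodes Ikaros, which restrains DP thymocytes and T cell activation. The CtslΔTEC mice were at 204.2, 181, 211, 195 and 202 TPM. Control mice were at 238, 247, 255 and 221 TPM, so that the genotypes were separate but close. In counts they were also separate, at 431.5 to 479.4 CPM in CtslΔTEC and 520.8 to 594.7 CPM in control mice. Over the transcripts with the first finger exon, which held most counts of the gene, the TPM ranges overlapped slightly. They were 108.3 to 129.8 in CtslΔTEC and 129 to 147.3 in control mice. Short transcripts, described below, thus weighed on the separation in TPM. The log2 fold change was −0.27 ± 0.064 (SE, adjusted p = 0.01892, edgeR; exact permutation p = 0.00794). Within the second date the difference was −0.31 (adjusted p = 0.0256, edgeR).

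Helios, the product of Ikzf2 (ENSMUSG00000025997; chromosome 1, 69531214 to 69687245), was first described in the T lineage and is used as a marker of thymus-derived regulatory T cells. Ikzf2 was rare in these cells, with 100 to 147 estimated counts per CtslΔTEC library and 130 to 239 per control library. Its level was 0.682, 0.4999, 0.771, 0.625 and 0.725 TPM in CtslΔTEC mice and 1.10, 0.884, 0.889 and 1.003 TPM in controls. The 2 groups were again separate, with all CtslΔTEC mice lower. The log2 fold change was −0.72 ± 0.15 (SE, adjusted p = 0.008619, edgeR; exact permutation p = 0.00794), and −0.87 within the second date (adjusted p = 0.0132, edgeR).

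The covariate for Y-linked transcripts ended 2 of these 3 calls. Y-linked transcripts were high in every unstimulated CtslΔTEC mouse and, among the controls, in mouse 3 alone. The covariate and genotype can therefore hardly be told apart. With the covariate, Ikzf1 was at −0.21 (adjusted p = 0.496, edgeR) and Ikzf2 at −0.45 (adjusted p = 0.508, edgeR), whereas Ikzf3 was still called. Control mouse 3, the unstimulated control with high Y-linked transcripts, was above every CtslΔTEC mouse for Ikzf1 (255 TPM) and Ikzf2 (0.889 TPM), and below each of them for Ikzf3 (64.8 TPM). The part of DP thymocyte markers in these differences was not tested.

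The other 3 genes did not pass the test. Ikzf5 (ENSMUSG00000040167; chromosome 7, 131388652 to 131410521), the most distant member of the family, was at 35.5, 27.5, 43.5, 34.8 and 40.2 TPM in CtslΔTEC and 32.7, 24.07, 33.4 and 24.6 TPM in control mice, with overlapping ranges (log2 fold change 0.15 ± 0.080, SE, adjusted p = 0.2756, edgeR). Ikzf4 (ENSMUSG00000002578; chromosome 10, 128630843 to 128645991) varied most among mice of one genotype. Its level was 3.40, 2.26, 2.79, 0.916 and 3.16 TPM in CtslΔTEC mice, from 27 to 351 estimated counts, and 1.47, 1.59, 2.50 and 1.68 TPM in controls, from 34 to 194 counts. The log2 fold change of 0.11 ± 0.54 (SE, adjusted p = 0.933, edgeR) was smaller than its error and changed sign, to between −0.20 and −0.042, when CtslΔTEC mouse 1, CtslΔTEC mouse 5 or control mouse 2 was left out.

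Foxp3 (ENSMUSG00000039521; chromosome X, 7573644 to 7595245) was close to the limit of detection. CtslΔTEC mice 1 to 5 had 36, 33, 18, 28 and 46 estimated counts and control mice 1 to 4 had 27, 21, 30 and 22. In levels these were 0.681, 0.961, 0.649, 0.684 and 0.8895 TPM against 0.816, 0.806, 0.786 and 0.834 TPM. The control values lay inside the range of the CtslΔTEC values. The log2 fold change was 0.18 ± 0.24 (SE, adjusted p = 0.7247, edgeR), and its sign changed with an offset for transcript length (−0.11) and with the Y-linked covariate (−0.30). A difference in Foxp3 was therefore not detectable at this depth.

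**Figure D2:**
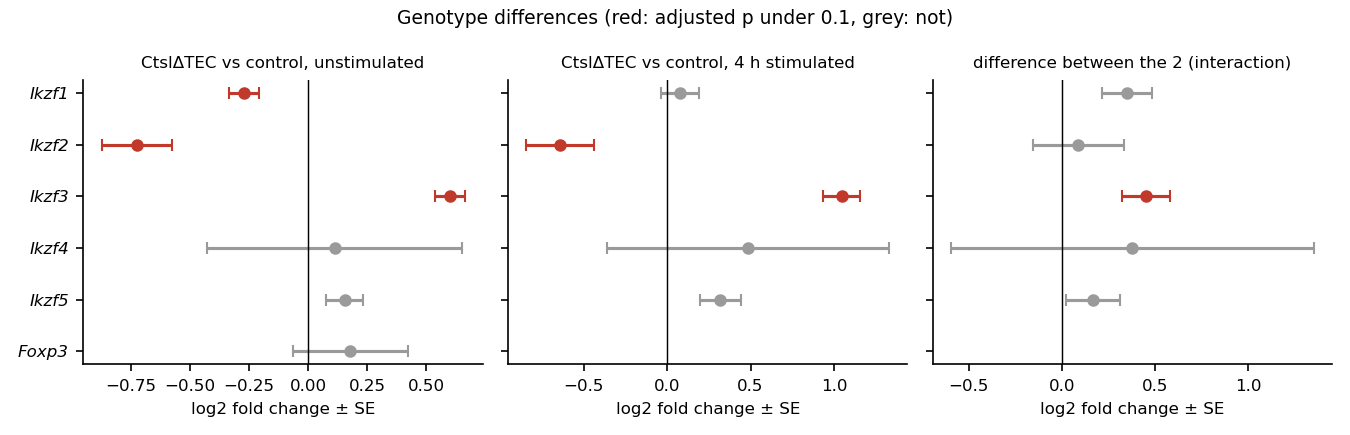
Log2 fold change between CtslΔTEC and control cells (horizontal axes, points, with SE as whiskers) for unstimulated cells, stimulated cells and the interaction, with genes past an adjusted p of 0.1 in red. Ikzf3 was red in all 3 panels, Ikzf2 in the first and second and Ikzf1 in the first; Foxp3 is drawn for unstimulated cells only because stimulated libraries held at most 2 counts.

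After 4 h of stimulation, Ikzf3 was 2.06-fold higher in CtslΔTEC cells and Ikzf2 was lower, whereas Ikzf1 did not pass the test. These 2 of the 6 genes were called, beside 13.3% of the 14241 genes tested. With 2 mice of each genotype, 49.6% of all genes had groups without overlap, and no exact test over mice can give a p under 0.333, so that only the fit across all genes was used here.

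Ikzf3 was at 289 and 270 TPM in CtslΔTEC mice 6 and 7 and at 102 and 144 TPM in control mice 5 and 6. Both CtslΔTEC mice were well above both controls. The log2 fold change was 1.05 ± 0.11 (SE, adjusted p = 8.8e-05, edgeR) and lay between 0.89 and 1.21 in the 24 alternative analyses, in each of which it was called. With the Y-linked covariate the difference was 1.05, and 1 mouse of each genotype had high Y-linked transcripts.

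Ikzf2 was at 1.96 and 1.93 TPM in CtslΔTEC cells and at 2.56 and 3.07 TPM in controls, with all CtslΔTEC values lower. Its log2 fold change was −0.64 ± 0.20 (SE, adjusted p = 0.0656, edgeR). The call was lost without CtslΔTEC mouse 6 (adjusted p = 0.23), CtslΔTEC mouse 7 (0.193) or control mouse 6 (0.252) in edgeR, and with all libraries thinned to the smallest total (0.253). It was also lost with protein-coding transcripts alone (0.104), the length offset (0.116), the 4 stimulated libraries alone (0.118) and a threshold of 0.05, and so held in 16 of 24 alternatives.

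Ikzf1 was at 256 and 255 TPM in CtslΔTEC cells and on both sides of these values, at 204 and 296 TPM, in controls. Its log2 fold change was 0.075 ± 0.11 (SE, adjusted p = 0.7595, edgeR), and −0.083 without control mouse 5. Ikzf5 was at 23.8 and 24.2 TPM in CtslΔTEC and 21.4 and 15.4 TPM in control mice (0.32 ± 0.12, SE, adjusted p = 0.1283, edgeR). It passed the threshold under some alternatives, with DESeq2 among them (adjusted p = 0.0912). Ikzf4 was at 0.861 and 0.8097 TPM in CtslΔTEC and 1.04 and 0.611 TPM in control mice, and its log2 fold change of 0.49 was smaller than its SE of 0.84 (adjusted p = 0.802, edgeR). Foxp3 had 1 and 0 estimated counts in CtslΔTEC mice and 2 and 1 in controls. Both genotypes were at or under 3 counts, the limit that a count of 0 allows, so no fold change is given.

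The interaction of genotype and stimulation asks whether the genotype difference itself changed. Ikzf3 was called here, 1 of the 6 genes, beside 6.01% of all genes tested. Among called genes, 18.8% had a positive interaction, and 29.4% with DESeq2, in which Ikzf3 was called as well. Its difference in stimulated cells exceeded that in unstimulated cells by 0.45 ± 0.13 on the log2 scale (SE, adjusted p = 0.0778, edgeR). This call was fragile: it was lost in 8 of the 13 fits that each left out 1 mouse (unstimulated CtslΔTEC mice 4 and 5, unstimulated control mice 1, 2 and 3, stimulated CtslΔTEC mice 6 and 7 and stimulated control mouse 5), and without control mouse 5, the shallowest library, the value was 0.30 (adjusted p = 0.351, edgeR). Ikzf1, whose genotype difference was called in unstimulated cells alone, had an interaction of 0.35 ± 0.14 (SE, adjusted p = 0.2061, edgeR), and was called with DESeq2 (0.39, adjusted p = 0.0598) and without stimulated control mouse 6 (0.51, adjusted p = 0.0433, edgeR) but in none of the other 21 alternatives. For Ikzf2 the interaction was 0.087 ± 0.24 (SE, adjusted p = 0.9248, edgeR).

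The ratio of Ikzf3 to Ikzf1 was examined after the values had been seen and is given without a test. In unstimulated cells, Ikzf3 stood to Ikzf1 in TPM as 0.510, 0.604, 0.543, 0.499 and 0.520 in the 5 CtslΔTEC mice and as 0.312, 0.257, 0.254 and 0.250 in the 4 control mice. After stimulation the ratio was 1.13 and 1.06 in CtslΔTEC and 0.501 and 0.487 in control cells. Stimulated CtslΔTEC cells were thus the only group in which Ikzf3 was listed above Ikzf1. That order rested on short transcripts of Ikzf3 that are not annotated as coding. Over protein-coding transcripts the ratio was 0.412 and 0.417 in stimulated CtslΔTEC cells, 0.222 and 0.212 in stimulated controls, 0.299 to 0.337 in unstimulated CtslΔTEC cells and 0.155 to 0.186 in unstimulated controls, so that the genotypes stayed apart but Ikzf1 was the higher gene throughout.

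**Figure D3:**
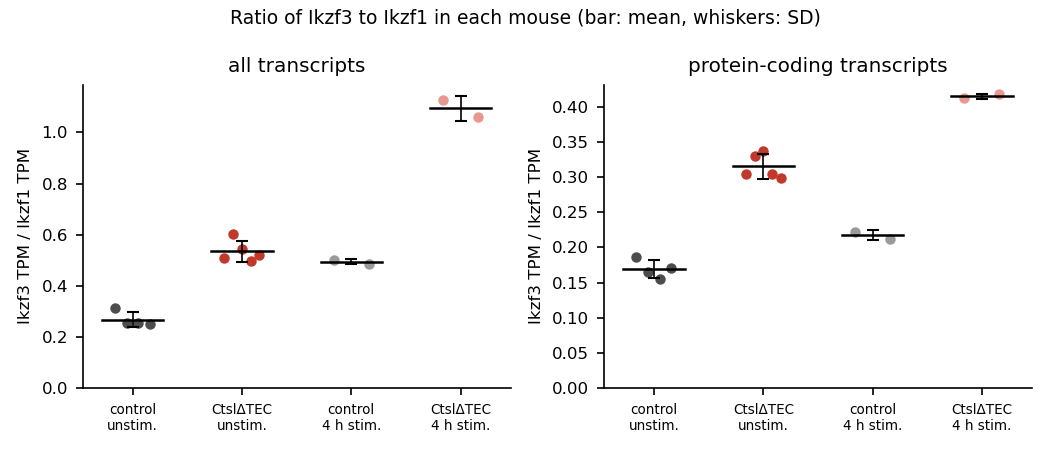
Ratio of Ikzf3 to Ikzf1 TPM (vertical axes, from 0) in each mouse, over all transcripts on the left and protein-coding transcripts on the right, with the mean as a bar and the SD as whiskers. CtslΔTEC mice were above control mice of the same state in both panels, and a ratio above 1 was reached only by the 2 stimulated CtslΔTEC mice over all transcripts (1.06 and 1.13).

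Stimulation with antigen and anti-CD28 went with more Ikzf1, Ikzf2 and Ikzf3 and with less Ikzf5 in both genotypes. Foxp3 passed the filter on low counts only through the unstimulated libraries, where it is higher, so that it is left out of the counts here and given as counts without the test. The responses compare different mice with different dates. In controls 4 of the other 5 genes were called, beside 67.7% of all genes tested, and in CtslΔTEC cells 4 of 5, beside 71.2% (38.2% lower), so the number called was near that of genes at large. The groups did not overlap for the same 4 genes in either genotype, beside 69.2% and 71.6% of all genes. The responses use the same libraries as the genotype comparisons, and the values of both genotypes are given side by side.

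Ikzf2 rose most among the family members in both genotypes. Its log2 fold change was 1.59 ± 0.17 (SE, adjusted p = 9.597e-07, edgeR) in control cells and 1.67 ± 0.17 (SE, adjusted p = 3.464e-07, edgeR) in CtslΔTEC cells, from 5.91 to 17.1 and from 3.57 to 10.9 CPM on average. Ikzf3 rose by 0.64 ± 0.09 (SE, adjusted p = 2.316e-05, edgeR) in control and by 1.09 ± 0.09 (SE, adjusted p = 2.923e-08, edgeR) in CtslΔTEC cells. After the rise, Ikzf3 in stimulated control mice 5 and 6 was at 161 and 201.2 CPM, beside 169 to 193.5 CPM in unstimulated CtslΔTEC mice. Over the coding transcript these were 45.3 and 62.8 TPM beside 59.5 to 71.1 TPM, so that mouse 5 lay below the unstimulated CtslΔTEC range on both scales.

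Ikzf1 rose in counts by 0.42 ± 0.10 (SE, adjusted p = 0.001507, edgeR) in control and by 0.76 ± 0.09 (SE, adjusted p = 2.606e-06, edgeR) in CtslΔTEC cells. In control cells this depended on the scale and on 1 mouse, since it was 0.23 without stimulated mouse 6 (adjusted p = 0.0809, edgeR). In TPM, stimulated control mouse 5 (204 TPM) was below and mouse 6 (296 TPM) above all 4 unstimulated controls, and with an offset for transcript length the log2 fold change was 0.11 (adjusted p = 0.389, edgeR). In CtslΔTEC cells the offset left it at 0.45 (adjusted p = 0.000759, edgeR), and both stimulated mice were above all 5 unstimulated ones in TPM.

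Ikzf5 fell by 0.69 ± 0.11 (SE, adjusted p = 4.679e-05, edgeR) on the log2 scale in control cells and by 0.52 ± 0.10 (SE, adjusted p = 0.0003509, edgeR) in CtslΔTEC cells. Ikzf4 had log2 fold changes of −0.96 ± 0.73 (SE, adjusted p = 0.2671, edgeR) and −0.58 ± 0.67 (SE, adjusted p = 0.4622, edgeR). It passed the threshold in both genotypes with the offset for transcript length (−1.17, adjusted p = 0.0475, and −1.50, adjusted p = 0.00842, edgeR).

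Foxp3 was at 0 to 2 estimated counts in each stimulated library. Pooled over mice, 3 counts of 35269983 were found in stimulated control cells against 100 of 125624685 in unstimulated ones, a ratio of rates of 0.107 (95% exact interval 0.0217 to 0.321). In CtslΔTEC cells, 1 count of 28658219 stood against 161 of 168162216, a ratio of 0.0364 (95% exact interval 0.000917 to 0.206). These intervals cover counting error only.

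Transcript usage within the genes was compared next, from the levels that kallisto assigned to each annotated transcript. Of 13 transcript shares tested between unstimulated genotypes, none passed an adjusted p of 0.1 by exact permutation tests, and 2 had an unadjusted p under 0.05. With 5 mice against 4, a single share at the smallest p would reach an adjusted p of 0.103, so that no share could pass on its own and the count of 0 says little. Ikzf1-202, a form without the first finger exon printed above, made up 20.98 ± 3.4% of Ikzf1 TPM in CtslΔTEC and 13.7 ± 2.6% in control cells (SD, n = 5 and 4, exact permutation p = 0.0238, adjusted p = 0.206). Ikzf3-202 made up 13.4 ± 1.0% and 11.03 ± 1.7% of Ikzf3 TPM (SD, exact permutation p = 0.0317, adjusted p = 0.206).

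The share of transcripts with the first finger exon, Ikzf1-203 and Ikzf1-204, overlapped between the genotypes. These transcripts made up 55.4 to 61.6% of Ikzf1 TPM in unstimulated CtslΔTEC and 51.0 to 59.5% in control mice. After stimulation the shares were 70.7 and 73.7% in CtslΔTEC and 68.3 and 71.0% in control mice, above every unstimulated mouse. In estimated counts the same transcripts made up 90.8 to 96.0% of the gene in unstimulated and 96.3 to 96.8% in stimulated libraries. The difference was seen after the fact and was not tested.

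Short transcripts weighed on the levels of both genes. Ikzf1-205 and Ikzf1-206, annotated from an upstream first exon that starts at position 11685003, summed to 34.3 ± 4.5 TPM in unstimulated CtslΔTEC and 61.1 ± 10.0 TPM in control cells (SD, n = 5 and 4, chosen after their values were seen and without a test). The ranges, 29.4 to 39.3 and 50.2 to 73.2 TPM, did not overlap. Their effective lengths of 44.9 to 219 bases turned 64.6 to 196 estimated counts per unstimulated library, or 0.506 to 1.29% of the counts of the gene, into these levels.

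Ikzf3 transcripts not annotated as coding, mostly Ikzf3-202 and Ikzf3-204, rose with stimulation. In unstimulated cells they took 37.9 to 45.4% of Ikzf3 TPM in CtslΔTEC and 31.8 to 40.3% in control mice. In stimulated cells they took 60.6 and 63.4% against 55.7 and 56.4%. Counted in reads they were a smaller part, 8.05 to 12.2% of the estimated counts of the gene in unstimulated and 16.6 to 21.7% in stimulated libraries. Retained-intron transcripts of all genes together also took more of the counts of stimulated (5.99 to 8.55%) than of unstimulated libraries (5.13 to 6.59%), with overlap. The genotype difference in Ikzf3 was as large over the protein-coding transcript, at 0.60 in unstimulated (adjusted p = 0.000147, edgeR) and 1.02 in stimulated cells (adjusted p = 0.000213, edgeR).

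**Figure D4:**
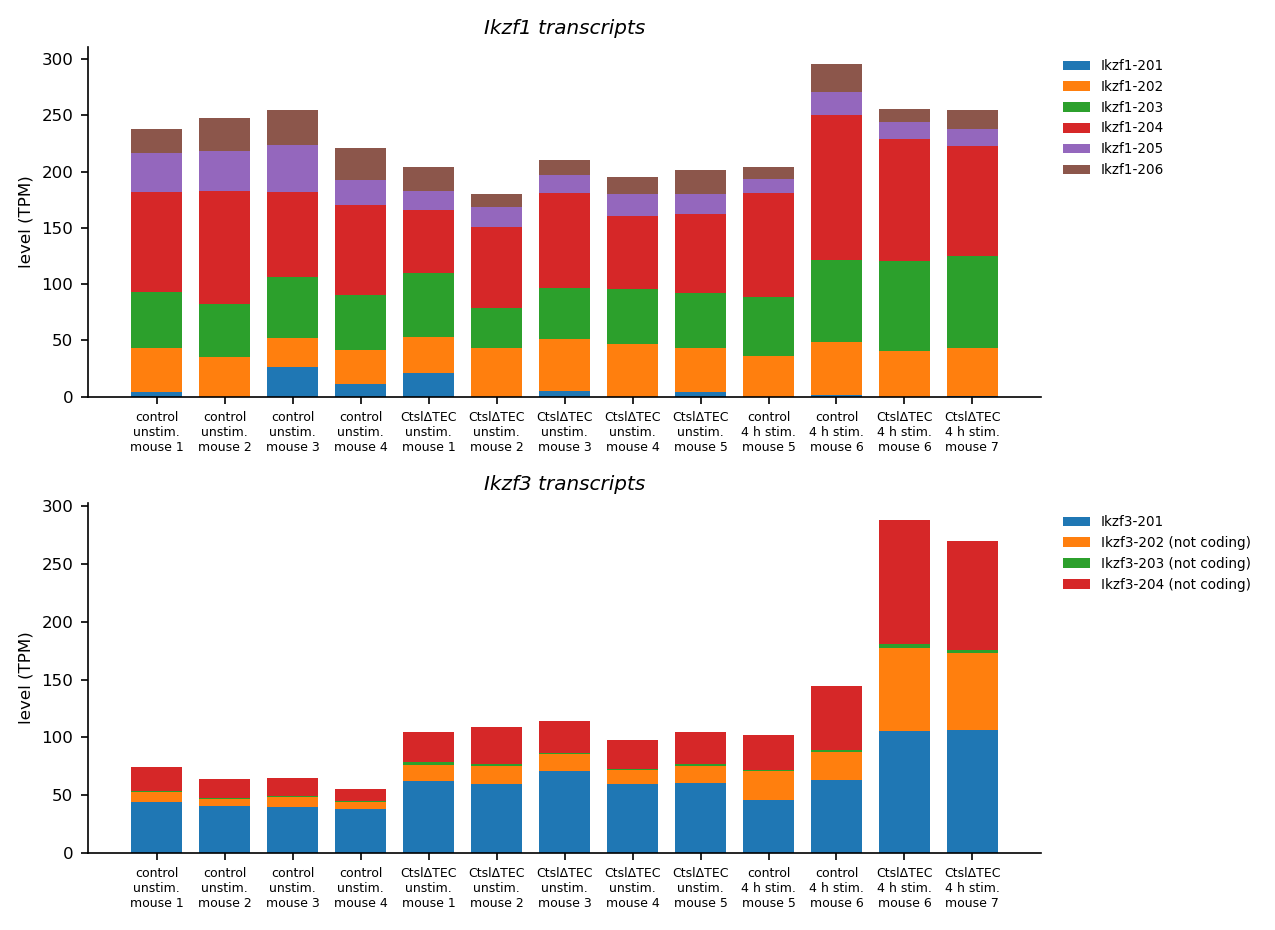
Level in TPM (vertical axes, from 0) of each annotated transcript of Ikzf1 (top) and Ikzf3 (bottom) in each mouse, stacked to the level of the gene. Among the Ikzf3 bars, those of stimulated CtslΔTEC mice 6 and 7 (289 and 270 TPM) are the tallest, and transcripts not annotated as coding make up 63.4 and 60.6% of them.

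Few partners of the family were called between genotypes. Ikaros and Aiolos act through the NuRD, Sin3, CtBP and SWI/SNF complexes. Of 19 tested genes of these complexes, 0 were called in unstimulated cells by edgeR, beside 14.8% of all genes, and 0 by DESeq2. At an unadjusted p under 0.05 there were 0, beside 3168 of the 13152 genes tested. In stimulated cells 3 of 20 had an unadjusted p under 0.05, beside 3219 of the 14241 genes tested. DESeq2 called 1 higher and 1 lower. Where edgeR called 13.3% of all genes, it called 1 partner, Hdac1, a histone deacetylase of NuRD and Sin3, which was lower (−0.28 ± 0.10, SE, adjusted p = 0.09507, edgeR). In human cells, the cereblon ligase destroys Ikaros and Aiolos in the presence of thalidomide derivatives. Of its 5 genes, 0 were called in unstimulated cells by edgeR or DESeq2, with 0 at an unadjusted p under 0.05, and 1 in stimulated cells, the substrate receptor Crbn, which was higher (0.48 ± 0.13, SE, adjusted p = 0.03165, edgeR). On stimulation 12 partners rose and 6 fell in control cells, and 10 rose and 6 fell in CtslΔTEC cells, of 20 tested. Of all genes, 32.9% rose in each genotype and 34.8% and 38.2% fell, so that the number of partners that fell was near or under that of genes at large. Mta3, a NuRD subunit, fell by 1.59 and 1.29, and Rbbp7, a histone-binding subunit, rose by 0.70 and 0.76 on the log2 scale.

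Several genes known as targets of the family differed with genotype. In unstimulated cells 5 of 12 tested genes were called, all higher in CtslΔTEC cells, beside 6.42% of all genes called higher. They included Cd8a and Cd8b1, which encode the CD8 coreceptor (2.75 ± 0.12 and 2.22 ± 0.10, SE, adjusted p = 2.765e-07 for both, edgeR), Dntt, which encodes terminal transferase (1.84 ± 0.16, SE, adjusted p = 3.489e-05, edgeR), and Il2ra. Cd8a, Cd8b1, Dntt and Ptcra also stand among the DP thymocyte markers, and their part in this count was not tested. In stimulated cells 3 of 15 were higher, beside 2.78% of all genes, and 1 was lower, beside 10.6%. With at least 10 counts required in every library, 8 of these genes were tested and 2 were called. Here and below, list counts under an alternative fit stand without the share of all genes called in that fit. A loss shared by all genes therefore cannot be told apart from a loss in the list. Il2, the cytokine gene that Aiolos and Ikaros silence, was the lower one (−3.55 ± 0.34, SE, adjusted p = 5.861e-05, edgeR), and Cd8a, Cd8b1 and Bcl6 were the higher ones, with Bcl6 at 0.59 ± 0.16 (SE, adjusted p = 0.02998, edgeR).

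Genes of the regulatory T cell program other than Foxp3 were called in both directions. In unstimulated cells 6 of 17 were higher and 1 was lower in CtslΔTEC cells (median of the list 0.38 on the log2 scale), beside 6.42% and 8.36% of all genes, and 3 were called with the Y-linked covariate. The IL-2 receptor chain Il2ra was higher by 2.0 ± 0.20 (SE, adjusted p = 6.824e-05, edgeR), the folate receptor family gene Izumo1r by 1.06 ± 0.11 (SE, adjusted p = 9.59e-05, edgeR) and the repressor gene Prdm1 by 0.45 ± 0.10 (SE, adjusted p = 0.01503, edgeR), whereas the actin-capping gene Capg was at −0.47 ± 0.13 (SE, adjusted p = 0.03637, edgeR). In stimulated cells 0 of 19 were higher in edgeR and in DESeq2, and 5 were lower, with a median of −0.43, beside 2.78% higher and 10.6% lower of all genes. At an unadjusted p under 0.05 there were 5, beside 3219 of the 14241 genes tested. Without stimulated control mouse 5, 1 was called, and without stimulated CtslΔTEC mouse 6, 3. Gpr83 (−1.39 ± 0.28), Tnfrsf4, which encodes OX40 (−0.94 ± 0.22), and Capg (−0.86 ± 0.21) had the smallest p among the lower ones (SE, adjusted p = 0.006949, 0.01458 and 0.01788, edgeR). The interaction was called for 5 of 19, beside 4.88% of all genes called in the same direction. In all 5 the genotype difference, not the level of the gene, was lower in stimulated than in unstimulated cells. Il2ra led them (−1.83 ± 0.27, SE, adjusted p = 0.003888, edgeR). Over the alternatives 1 to 7 were called, with 1 without stimulated CtslΔTEC mouse 6, 2 without stimulated CtslΔTEC mouse 7 and 3 without unstimulated CtslΔTEC mouse 2 or 5, unstimulated control mouse 1 or stimulated control mouse 5.

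Among 25 factors that act on Foxp3 induction, 2 were higher and 4 lower in unstimulated CtslΔTEC cells, beside 6.42% and 8.36% of all genes. In stimulated cells 6 were higher and 4 lower, beside 2.78% and 10.6%. These 10 became 5 without stimulated CtslΔTEC mouse 6 and 6 without stimulated control mouse 5. Foxo1, a factor required for regulatory T cell development, was lower in both states (−0.46 ± 0.07, adjusted p = 0.00167, and −0.61 ± 0.12, adjusted p = 0.004699, SE, edgeR). Runx1, which binds the Foxp3 locus with CBFβ, was lower in unstimulated (−0.28 ± 0.08, SE, adjusted p = 0.03915, edgeR) and higher in stimulated cells (0.46 ± 0.12, SE, adjusted p = 0.02678, edgeR), with an interaction of 0.74 ± 0.14 (SE, adjusted p = 0.01486, edgeR). Tet2, a DNA demethylating enzyme, was higher after stimulation (1.19 ± 0.18, SE, adjusted p = 0.001143, edgeR), and Ets1 (−1.40 ± 0.19, SE, adjusted p = 0.0004966, edgeR) and Runx3 (−1.27 ± 0.15, SE, adjusted p = 0.0001739, edgeR) were lower. With the Y-linked covariate 0 of the 25 were called in unstimulated cells in edgeR, against 6 without it. The share of all genes called with the covariate is not given here, so this loss cannot be set against genes at large. Without the covariate, 8 had an unadjusted p under 0.05, beside 3168 of the 13152 genes tested.

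The relatives Foxp1, Foxp2 and Foxp4 had no genotype call in either state in edgeR (0 of 3, with 1 at an unadjusted p under 0.05 in each state, and with 0 and 1 called by DESeq2). Of all genes tested, 3168 of 13152 in unstimulated and 3219 of 14241 in stimulated cells had an unadjusted p under 0.05. Foxp4 rose on stimulation by 2.25 ± 0.17 (SE, adjusted p = 3.007e-08, edgeR) in control and 2.94 ± 0.16 (SE, adjusted p = 5.634e-10, edgeR) in CtslΔTEC cells. Of 13 genes of strong TCR signaling, which precedes Foxp3 induction, 2 were higher and 2 lower in unstimulated CtslΔTEC cells, beside 6.42% and 8.36% of all genes. The higher ones were Bcl2l11, which encodes the death factor BIM (0.53 ± 0.08, SE, adjusted p = 0.001413, edgeR), and Nr4a3, and the lower ones were Cd5 (−1.08 ± 0.11, SE, adjusted p = 7.55e-05, edgeR) and Cd6. In stimulated cells 2 were higher and 1 was lower, beside 2.78% and 10.6%, and 0 higher and 1 lower without stimulated CtslΔTEC mouse 6 or stimulated control mouse 5, and 1 and 1 without stimulated CtslΔTEC mouse 7. Bcl2l11 was the lower one (−0.68 ± 0.13, SE, adjusted p = 0.004499, edgeR), with an interaction of −1.21 (adjusted p = 0.00235, edgeR). Cd5 and Cd6 were at −0.30 and −0.021 in stimulated cells and did not pass the test there, and their interactions of 0.78 and 0.71 were called (adjusted p = 0.0339 and 0.01835, edgeR). Stimulation raised 12 of the 13 in both genotypes, beside 32.9% of all genes called higher in each.

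The profiles most like each gene over the 13 libraries were taken as a description, since libraries share groups and depth. Ikzf3 was closest to Hnrnph1, Zfp445 and Kif7 (Pearson r of log2 CPM 0.952, 0.948 and 0.946). Ikzf1 was closest to Ippk, Cd40lg and Wdr26 (0.981, 0.968 and 0.968), and Ikzf2 to Cd44, Map2 and Adk (0.984, 0.983 and 0.982). Sp4 and Cd226 were among the 3 closest to Ikzf5 (0.985 and 0.983). For Ikzf4 the highest values were lower, with 0.836 for Ptger1, 0.796 for Snrnp70 and 0.795 for Dynlt1-ps1. Over the 9 unstimulated libraries alone, none of the 15 closest genes was among the 3 closest to the same member.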

How the data were processed

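RNA was sequenced from sorted M2 CD4SP thymocytes of 13 mice. The labels name polyA RNA, whereas the study's methods describe rRNA depletion. Reads had been pseudoaligned by the authors to Ensembl 106 transcripts with kallisto 0.48, and estimated counts without normalization and TPM were deposited for each transcript. A kallisto estimate splits reads shared by transcripts of a gene, so transcript values are less certain than gene values. Of 117497 transcripts, 116397 were paired with a gene through GENCODE M21 (GRCm38). Estimated counts were summed to genes and rounded, and TPM were summed. Groups and mouse numbers came from the labels.

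Tests used the quasi-likelihood model of edgeR 4.0.16 (R 4.3.3) after TMM normalization and filterByExpr. P-values were adjusted by Benjamini-Hochberg over all genes tested, with 0.1 as threshold. The unstimulated comparison used 9 libraries. The stimulated comparison, the interaction and the responses used a 4-group model of 13. SEs were derived from the F statistic. CPM used TMM factors and, on the log scale, a prior count of 2. Transcript shares of at least 10% were compared by two-sided exact permutation. DESeq2 1.42.0, other normalizations and filters, a length offset, protein-coding transcripts alone, covariates for Y-linked genes and date, thinning, and leaving out each mouse were alternatives. Zinc fingers were found by pattern in translated coding sequence. The named genes are the 6 members, up to 3 list genes per direction with the smallest p, the 3 most similar profiles per member, and markers. 1 of the similar profiles is not reported here. Members, lists and tests were chosen with earlier results of these data known. The fits were tested on simulated data. Genes changed 1.5-fold were recovered for 74% in the unstimulated comparison, 30% in the stimulated one and 16% in the interaction. For 2-fold changes these values were 94, 74 and 57%. False calls made up 5.62, 10.3 and 9.88% of the calls.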

Additional observations from a re-analysis of the deposited data

Results flagged for a closer look

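Ikzf1 in unstimulated control mouse 2 was at 9.22 log2 CPM, apart from the other 3 controls, the nearest of which was at 9.05 and the lowest at 9.03. The gap to the nearest control, set against the range of the group, passed the Dixon limit at 95%. Without this mouse the log2 fold change of Ikzf1 was −0.22 (adjusted p = 0.059, edgeR), still past the threshold. The Ikzf2-201 share of Ikzf2 TPM was 62.1% in unstimulated CtslΔTEC mouse 5, below the nearest of the other 4 mice at 75.3% and the highest at 77.8%, and rests on a gene of 100 to 147 counts per library. Such gaps were looked for in 38 groups of values, of which chance would mark about 1.9. Ikzf3 stood out because its genotype difference was tested to differ between stimulated and unstimulated cells (interaction 0.45 on the log2 scale, edgeR), a call kept in 10 of 23 alternatives and lost, at 0.30 (adjusted p = 0.351), without stimulated control mouse 5.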

How the results depend on the processing

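Ikzf3 was called in the same direction in each of the 22 alternatives for unstimulated and 24 for stimulated cells. In unstimulated cells 3 members were called in each alternative except the Y-linked covariate, with 1, and the replicate block, with 2. In stimulated cells 2 became 1, with Ikzf2 lost, with protein-coding transcripts alone, the length offset, the 4 stimulated libraries alone or a threshold of 0.05, 3 with DESeq2, upper-quartile factors or the strict filter, 2 with thinning (Ikzf5 in place of Ikzf2), and between 1 and 3 with single mice left out. For the interaction, 1 became 0 with library totals alone, no filter, protein-coding transcripts alone, the length offset or a threshold of 0.05, 2 with DESeq2 (Ikzf1 added), and between 0 and 2 with single mice left out. The cause was not tested. Single mice left out gave 3 members called in each unstimulated fit. Response counts for these fits included Foxp3, whose test was set aside above, and are not given. In each of them Ikzf1, Ikzf2 and Ikzf3 rose and Ikzf5 fell on stimulation in both genotypes.

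Signs changed only for genes that were not called. In unstimulated cells these were Foxp3 with the length offset (−0.11) and the Y-linked covariate (−0.30), and Ikzf4 with the Y-linked covariate (−0.50), the replicate block (−0.19) and single mice left out (from −0.20 to 0.40). In stimulated cells Ikzf1 ranged from −0.083 to 0.24 with single mice left out. The interaction changed sign for Ikzf4 with the length offset (−0.33) and for Ikzf2 when libraries were thinned (−0.080) or single mice left out (from −0.045 to 0.24).

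Mouse numbers do not pair the samples: the correlations of same-numbered mice were −0.157, 0.352, −0.0981 and −0.142 for numbers 1 to 4. With the number as a replicate block, 2 of the 3 unstimulated calls remained, Ikzf2 (adjusted p = 0.0762, edgeR) and Ikzf3 (0.00599), and Ikzf1 was at −0.28 (0.124). No paired analysis was possible because, in comparisons with stimulated cells, the groups compared share at most 1 number (6, between the stimulated groups). Scaling by library totals shifted the median of all genes by −0.144 (log2) in the CtslΔTEC response and by less than 0.1 elsewhere. Among list counts, Foxp3 induction factors ranged from 0 to 8 called in unstimulated cells, 5 to 12 in stimulated cells and 4 to 11 for the interaction, and regulatory T cell genes from 3 to 8 in unstimulated cells, from 1 to 7 in stimulated cells and from 1 to 7 for the interaction. These ranges stand without the share of all genes called in each fit. Over 9 unstimulated libraries, 0 of the 15 similar profiles recurred. Foxp3 rests on at most 46 estimated counts per library.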
